A study of Rattus norvegicus with 12 samples.

Results

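The 9 genes of thyroid hormone signalling and its cardiac myosin targets described here in rats given amiodarone are the receptors Thra and Thrb, the deiodinases Dio1 and Dio2, the hormone-responsive genes Thrsp, Hr and Klf9, and the myosin heavy chains Myh6 and Myh7. Members were the non-control probes whose gene name, or an older synonym of it, matched one of these symbols, and 11 probes represented all 9 genes out of 41012 probes and 16241 genes with a current symbol on the array. The study measured left ventricle and whole blood of male Sprague-Dawley rats of no stated genetic modification, on single-colour Agilent arrays, with 1 array for each of 12 pools. Amiodarone-treated rats received 300 mg/kg a day by mouth for 10 days (3 heart pools and 3 blood pools). Vehicle rats received 1% methylcellulose (3 heart pools and 3 blood pools). All rats weighed 290 to 320 g and were 10 weeks old when dosing began, and the sample labels give 11 weeks. The labels name neither the animals of a pool nor their number, so p-values measure the spread between these pools.

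Amiodarone is an iodine-rich antiarrhythmic drug, and it is known to inhibit the deiodinases, the enzymes that remove iodine from thyroid hormones. Dio1 and Dio2 convert the prohormone thyroxine into triiodothyronine, which binds the nuclear receptors encoded by Thra and Thrb. The receptors sit on target genes with retinoid X receptor partners and exchange corepressors for coactivators when hormone binds. In rodent ventricle, triiodothyronine is a textbook activator of Myh6 (the fast alpha myosin heavy chain) and repressor of Myh7 (the slow beta chain), so that the proportion of these chains is a classical readout of thyroid state.

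The myosin measurements rest on a pair of probes whose sequences are shown because they are partly the same. Both are 60 bases long and lie on the minus strand of chromosome 15 in the files' rn4 build, the Myh6 probe within chr15:33044576-33044983 and the Myh7 probe within chr15:33073020-33073645, spans wider than the probes themselves. The longest run they share has 27 bases and is written in capitals.
Myh6: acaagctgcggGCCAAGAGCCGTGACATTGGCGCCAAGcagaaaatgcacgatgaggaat
Myh7: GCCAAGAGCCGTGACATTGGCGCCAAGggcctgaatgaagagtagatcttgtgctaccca
The run covers positions 12 to 38 of the Myh6 probe and 1 to 27 of the Myh7 probe, and leaves 22 bases after it on the Myh6 probe and 33 on the Myh7 probe. How much of either transcript binds the other's probe was not tested. The single Thra probe is shown because the array lists it to 2 transcripts of the gene, so its signal is a sum over them; it lies on the plus strand at chr10:87537328-87537387 of rn4.
Thra: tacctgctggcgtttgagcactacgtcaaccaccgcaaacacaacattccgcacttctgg
Exon and untranslated positions were not assigned, since no rn4 annotation was used here.

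Signals are given as log2 of the processed signal after subtraction of each array's 75th percentile, a scale on which an array's 75th percentile is 0. A gene was tested if either group had its probe well above background on each of its 3 arrays. Between 21233 and 25032 of 43379 spots were well above background on heart arrays, and the 75th percentile of the signal was 111 to 163 on the 3 amiodarone arrays and 113 to 175 on the 3 vehicle arrays. Blood arrays were dimmer in the vehicle group: the 75th percentile was 56.8 to 87.5 with amiodarone and 20.9 to 26.2 with vehicle. In heart, 1502 of 17463 features passed an adjusted p of 0.05 in limma (8.6%), 781 of them higher (4.47%) and 721 lower (4.13%), and the groups did not overlap for 32.5%. Heart amiodarone pool 3 stood apart in the atrial marker Sln (sarcolipin), at 6.14 against -0.21 and 0.35 in the other amiodarone pools and -1.18 to 0.79 in the vehicle pools. The atrial markers Nppa and Myl7 were also highest in that pool, at 8.13 and 9.47. They were 2.70 to 5.30 and 3.93 to 7.62 on the other heart arrays. A further atrial marker, Myl4, did not set the pool apart (9.77, with the vehicle pools at 9.46 to 9.82), and was similarly bright on every heart array.

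Of the 9 members, 4 were bright enough to be tested in the ventricle, and 2 passed the test. Klf9 and Myh7 were higher after amiodarone, while Thra and Myh6 did not pass. That is 2 of 4 tested members higher, against 4.47% of all features. Both calls lay near the threshold: leaving out 1 pool ended the Klf9 call in 5 of 6 fits and the Myh7 call in 6 of 6. The other Klf9 probe did not pass in the limma fit of single probes (adjusted p = 0.596). The other 5 members, Thrb, Dio1, Dio2, Thrsp and Hr, were at or near background in the ventricle.

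**Figure D1:**
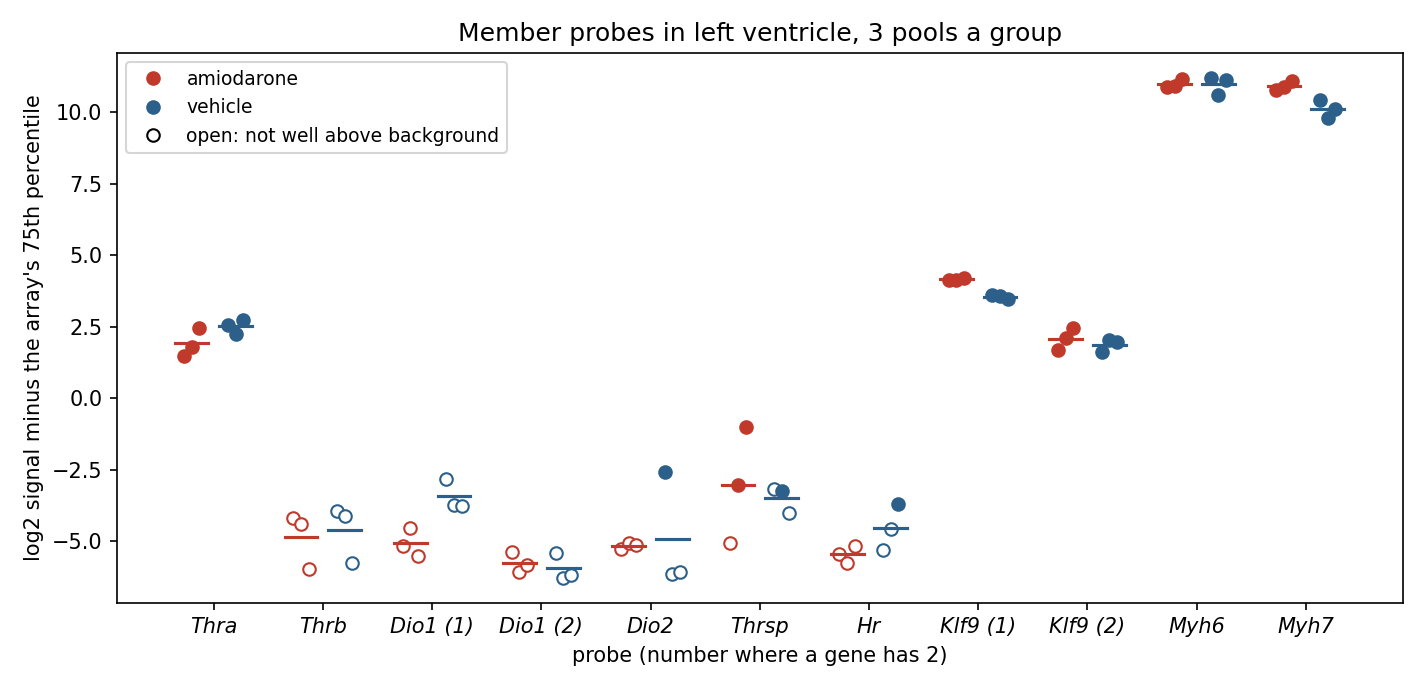
Log2 scaled signal of the 11 member probes in left ventricle, 1 point for each of 3 amiodarone pools (left of each pair) and 3 vehicle pools, with a line at the group mean; open points were not well above background. The groups separate for Myh7 and for Klf9 probe 1, overlap for Thra, Myh6 and Klf9 probe 2, and the remaining members lie at or near background.

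The receptors came first. Thra encodes the main thyroid hormone receptor of heart muscle. Its level was 1.48, 1.80 and 2.47 in the 3 amiodarone heart pools, against 2.57, 2.25 and 2.75 in the 3 vehicle heart pools. Amiodarone pools 1 and 2 lay under every vehicle pool, and pool 3 lay among them. The mean was 1.92 ± 0.50 with amiodarone and 2.52 ± 0.26 with vehicle (SD, n = 3 each), a log2 difference of -0.61 (SE 0.27, limma adjusted p = 0.208, 95% interval -1.23 to 0.01). A decrease as large as the Klf9 or Myh7 change lies inside the interval for Thra. Weighting arrays by quality put Thra past the threshold (-0.72, adjusted p = 0.0311), in a fit that called 4272 features.

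The gene on the opposite strand that overlaps Thra, Nr1d1, encodes the clock repressor REV-ERB alpha, and the RefSeq annotation of the GRCr8 build has the genes sharing 1061 bases. Nr1d1 fell in heart: its level was 0.41, 1.25 and 1.14 in the amiodarone pools, against 2.29, 2.15 and 2.24 in the vehicle pools, with no overlap. The log2 difference was -1.29 (SE 0.23, limma adjusted p = 0.0166). Leaving out 1 pool ended the Nr1d1 call in 3 of 6 fits, with adjusted p up to 0.0662. In blood, Nr1d1 was well above background on the amiodarone arrays alone, at signals of 20.3, 12.0 and 18.0. The vehicle signals were 3.18, 1.84 and 2.54. The scaled log2 difference of 1.15 therefore rests on a vehicle level that was not measured, and the vehicle blood arrays were dimmer before scaling. The Nr1d1 probe lies on the minus strand at chr10:87543165-87543519 in rn4 and the Thra probe on the plus strand, outside that span. Nr1d1 follows the time of day, and the labels do not give the hours at which tissues were taken.

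Thrb encodes the second receptor, and its only probe on the array was designed to a splice variant sequence. Its processed signal in heart was 5.67, 7.16 and 1.75 with amiodarone and 6.90, 9.50 and 2.40 with vehicle. None of these 6 values was well above background, so nothing can be said of Thrb as a whole in either direction.

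Receptor partners and coregulators were called about as often as features at large (8.6%). Of 21 genes listed, 20 were on the array and 19 were tested: 1 rose and 1 fell, with a median difference of 0.06 against 0.03 over all features. Ncoa3, a steroid and thyroid receptor coactivator, rose by 0.64 (SE 0.13, limma adjusted p = 0.0294), and its amiodarone pools, at -1.09, -1.03 and -0.91, lay above the vehicle pools at -1.59, -1.62 and -1.75. Leaving out 1 pool ended the Ncoa3 call in 5 of 6 fits, with adjusted p up to 0.131. Ppargc1b, a coactivator of mitochondrial genes, fell by 0.90 (SE 0.18, adjusted p = 0.0260), a call lost in 4 of those 6 fits. The retinoid X receptors Rxra, Rxrb and Rxrg had differences of -0.02, -0.16 and 0.19, and the corepressor Ncor1 had -0.05; none of these 4 passed the test.

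Neither activating enzyme was measurable in the ventricle. Both Dio1 probes were below the background criterion on all 6 heart arrays. The first had signals of 2.87, 6.51 and 2.39 with amiodarone and 14.9, 12.4 and 9.73 with vehicle, and the second had 1.95 to 2.46 with amiodarone and 1.81 to 2.48 with vehicle. Dio2, the activating deiodinase of brain and brown fat, was well above background on 1 vehicle array, at a signal of 17.8, while the other 5 heart arrays gave 1.94 to 4.52. No heart level or fold can be given for either gene, and enzyme activity is not measured by this assay.

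Genes for hormone transport, inactivation and binding also changed in part. Of 12 listed, all on the array, 5 were tested, with a median difference of 0.29 against 0.03 over all features. Among the 5, 2 rose and 0 fell, against 4.47% of all features higher. The 2 that rose were Slc7a8 and Slc3a2, the light and heavy chains of an amino acid exchanger that can also carry thyroid hormones. Slc7a8 stood at 0.00, -0.04 and -0.30 in the amiodarone pools, against -1.46, -1.50 and -1.51 in the vehicle pools, which did not overlap. It rose 2.60-fold (log2 1.38, SE 0.14, limma adjusted p = 0.00199) and passed whichever single pool was left out. Slc3a2 rose by 0.90 (SE 0.19, adjusted p = 0.0296), and lost its call in 5 of 6 such leave-one-out fits. Slc16a10 (a thyroid hormone and aromatic amino acid carrier) had a difference of 0.29, Crym (a cytosolic hormone-binding protein) had -0.06, and neither passed.

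Among the target genes, Klf9 separated the groups on 1 of its 2 probes. Klf9 encodes a zinc finger transcription factor induced directly by thyroid hormone in several tissues and also by glucocorticoids. Its brighter probe read 4.15, 4.13 and 4.22 in the amiodarone heart pools, against 3.62, 3.56 and 3.48 in the vehicle heart pools. The groups did not overlap, and the lowest amiodarone pool lay above the highest vehicle pool by several times the spread within either group. Means were 4.16 ± 0.05 and 3.55 ± 0.07 (SD, n = 3 each), a 1.53-fold increase (log2 0.61, SE 0.13, limma adjusted p = 0.0295).

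The other Klf9 probe did not show the same separation. It read 1.70, 2.09 and 2.45 in the amiodarone pools, against 1.60, 2.03 and 1.96 in the vehicle pools, and the groups overlapped. Its difference was 0.22 (SE 0.22, adjusted p = 0.596 in the fit of 20506 single probes, 7.5% of them called, where the brighter probe had adjusted p = 0.0341). With both probes averaged, Klf9 was higher by 0.41 (adjusted p = 0.157). The probes lie on the plus strand at chr1:226445625-226445684 (brighter) and chr1:226421727-226421786 of rn4 and are listed to the same transcript. The call for the brighter probe was also lost in 5 of 6 leave-one-out fits, with adjusted p from 0.0392 to 0.133 and differences from 0.57 to 0.64.

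Hr and Thrsp were too dim to test. Hr encodes the hairless corepressor, a direct thyroid hormone target in rat brain. Its heart signal was 2.36, 2.78 and 3.02 with amiodarone and 2.64, 6.97 and 10.1 with vehicle, and only the last of these was well above background. Thrsp (Spot 14), a nuclear protein of lipogenic tissues induced by thyroid hormone in liver, had signals of 3.05, 18.5 and 55.0 with amiodarone and 11.6, 17.2 and 8.19 with vehicle. It was well above background on 2 amiodarone arrays and 1 vehicle array, and the groups overlapped.

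The highest Thrsp value came from heart amiodarone pool 3, where fat cell genes were also detected. Adipoq (adiponectin) stood at -0.49 there, against -4.79 and -6.01 in the other amiodarone pools and -6.15 to -4.43 in the vehicle pools, and Cidec was well above background in that pool alone. Of 6 adipocyte markers 2 to 4 were well above background on an amiodarone array, with a summed scaled level of 34.1 to 55.0, against 2 on each vehicle array and 23.4 to 31.1. Plin1 and Lep were not above background on any heart array. The part of fat cells in the Thrsp signal was not tested.

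The myosin heavy chains were the brightest members and moved unequally. Myh7 read 10.78, 10.88 and 11.09 in the amiodarone heart pools, against 10.43, 9.80 and 10.13 in the vehicle heart pools. All amiodarone pools lay above all vehicle pools. Myh7 rose 1.74-fold (means 10.92 ± 0.16 and 10.12 ± 0.31, SD, n = 3 each, log2 difference 0.80, SE 0.19, limma adjusted p = 0.0452, 95% interval 0.35 to 1.25). Before any scaling the signal was 181309, 283698 and 240121 with amiodarone and 145388, 146560 and 146835 with vehicle, which did not overlap either.

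Myh6 did not pass the test. It read 10.88, 10.92 and 11.17 in the amiodarone heart pools, against 11.20, 10.60 and 11.14 in the vehicle heart pools. The groups overlapped completely, and the lowest and highest values were both vehicle pools. The log2 difference was 0.01 (SE 0.20, limma adjusted p = 0.982), and its 95% interval of -0.45 to 0.47 leaves room for changes in either direction. None of the 12 myosin readings was saturated; all 12 came from the low-sensitivity scan of the array, which no other member reading did.

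The Myh7 call was marginal. All 6 leave-one-out fits lost it (adjusted p 0.0516 to 0.140), although every one kept the direction, with differences from 0.64 to 0.95. Vehicle pool 2 had the lowest scaled level of both myosins.

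Within an array, the log2 signal of Myh7 minus that of Myh6 is free of any scaling that moves the whole array by 1 factor. Quantile scaling, which is not of that kind, gave log2 differences of 0.70 for Myh7 and -0.058 for Myh6. On the processed signal, the within-array difference was -0.10, -0.04 and -0.08 on the amiodarone arrays. On the vehicle arrays it was -0.78, -0.80 and -1.01. The means were -0.07 ± 0.03 and -0.86 ± 0.13 (SD, n = 3 each), apart by 0.79, or 1.73-fold. The separation is many times the spread within either group. It was 0.79 as well with normexp background correction and 0.79 in the authors' value table, and 0.72 to 0.83 without any 1 pool. The probes differ in sequence, so the value on 1 array is not the proportion of the chains. Its change between groups shows that the probes changed unequally and does not show that Myh6 stayed constant.

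**Figure D2:**
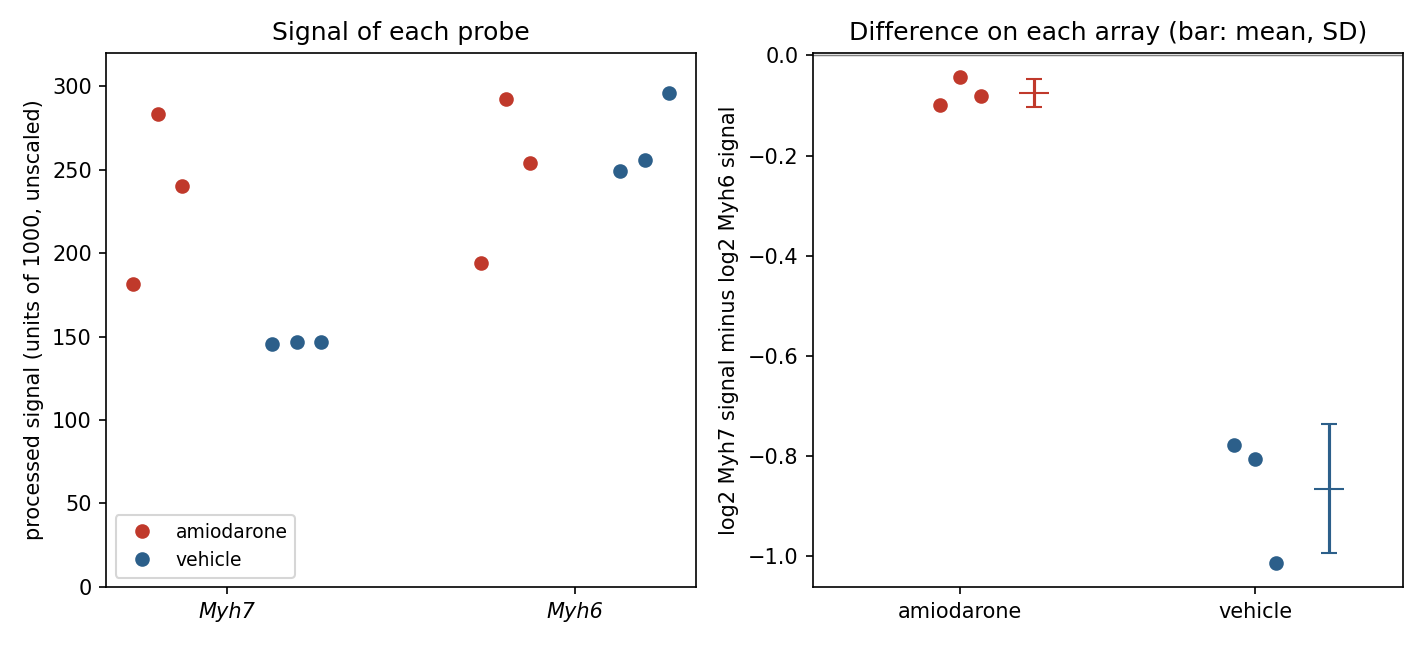
Left, unscaled processed signal of the Myh7 and Myh6 probes in each left ventricle pool, amiodarone left of vehicle; right, log2 Myh7 signal minus log2 Myh6 signal on each array, with mean and SD (n = 3 each). The 3 amiodarone arrays lie between -0.10 and -0.04 and the 3 vehicle arrays between -1.01 and -0.78.

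Each heart group was spread over a pair of slides. On each slide, as on the blood slides, the vehicle pools had the lower array positions, so position cannot be told apart from the drug. On the first slide, with 2 pools a group, the differences were 0.72 for Myh7, 0.55 for Klf9, -0.77 for Thra and -0.00 for Myh6. On the second slide, with 1 pool a group, they were 0.97, 0.74, -0.28 and 0.03 for these genes in the same order. With slide as a block, Klf9 kept its call and Myh7 lost it (adjusted p = 0.0584).

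**Figure D3:**
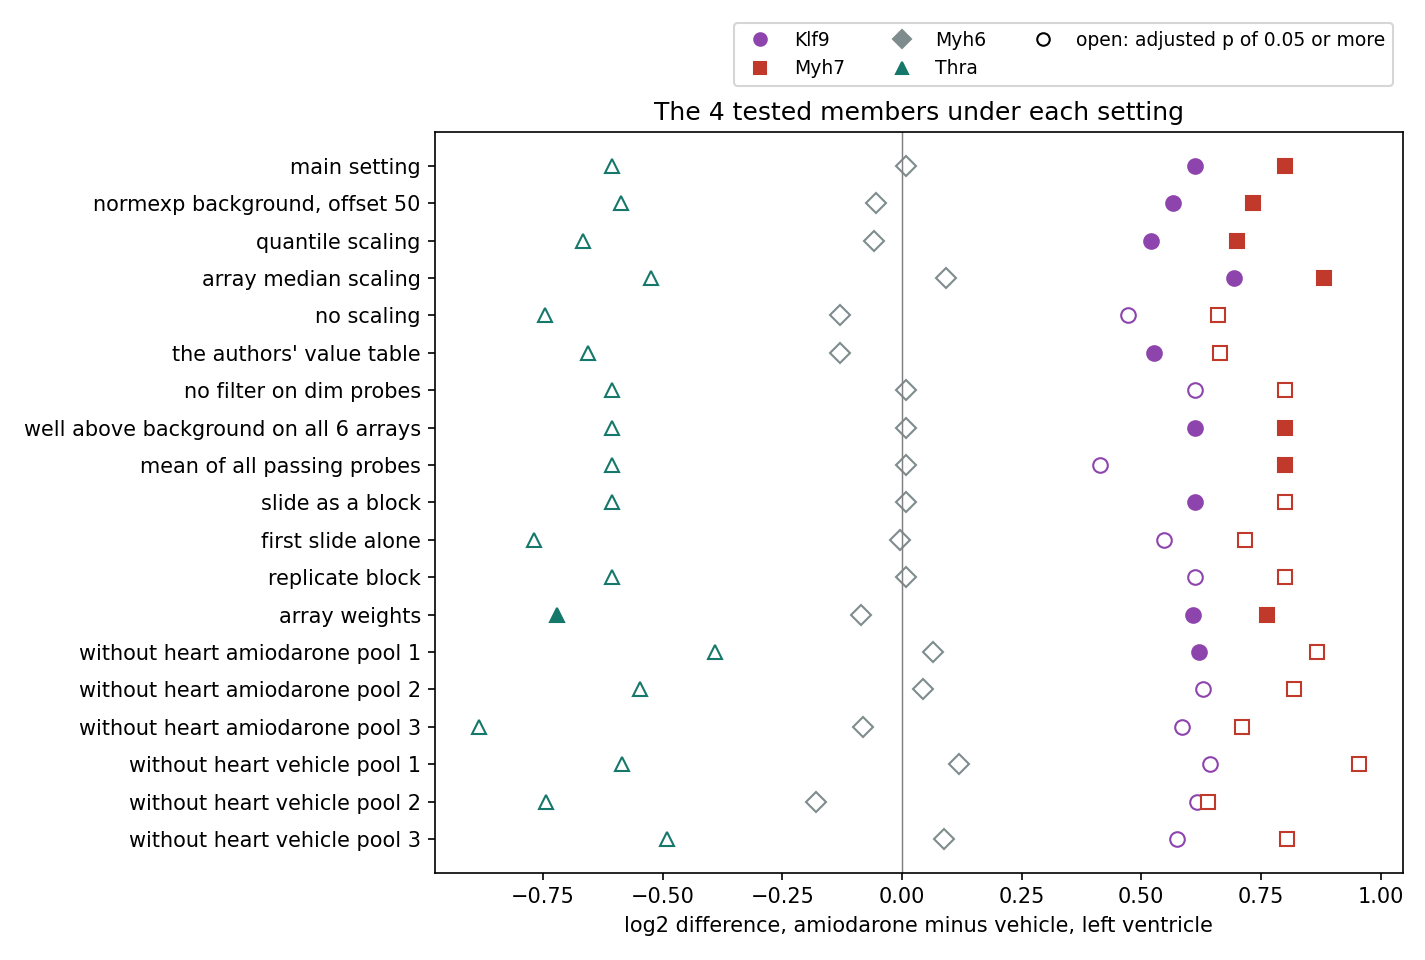
Log2 difference of the 4 tested members in left ventricle (amiodarone minus vehicle) under the main setting and each alternative, including each fit without 1 pool; filled points have an adjusted p below 0.05. Klf9 and Myh7 stay above 0 and Thra below 0 under every setting drawn, while Myh6 lies on either side of 0.

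Other thyroid hormone-responsive genes were called at the share of all features (8.6%). Of 28 listed, 23 were tested in heart: 1 rose and 1 fell, and the median difference was -0.12 against 0.03 over all features. Acaca, the first enzyme of fatty acid synthesis, rose by 0.63 (SE 0.14, limma adjusted p = 0.0361), and 5 of 6 fits without 1 pool lost it. Ucp2, a mitochondrial carrier protein, fell by 1.78 (SE 0.28, adjusted p = 0.0112), with levels of 0.62, 0.15 and 1.26 in the amiodarone pools and 2.41, 2.23 and 2.73 in the vehicle pools. Ucp2 passed in all 6 fits without 1 pool.

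The calcium-handling targets that thyroid hormone is known for in the heart were among those that did not pass. Atp2a2 (the sarcoplasmic reticulum calcium pump) had a difference of 0.03 (SE 0.16, adjusted p = 0.926), whose sign turned under 4 of the scalings and background settings. Pln (phospholamban, its inhibitor) had 0.28 (SE 0.14, adjusted p = 0.261) and Ryr2 (the calcium release channel) had -0.21 (SE 0.18, adjusted p = 0.514). The beta 1 adrenergic receptor Adrb1 had -0.75 and the potassium channels Kcnd2 and Kcna5 had -0.68 and 0.83, with adjusted p of 0.0793, 0.0742 and 0.0943.

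Among 23 other sarcomere genes, all tested, 2 rose and 1 fell, while 8.6% of all features were called. Their median difference was 0.08 against 0.03 over all features. Tnni1, the slow skeletal and fetal troponin I, stood at 0.28, 0.42 and 0.58 in the amiodarone pools, against -0.09, -0.74 and -0.60 in the vehicle pools, and rose by 0.90 (SE 0.20, limma adjusted p = 0.0350). Acta1, skeletal alpha actin, fell by 1.44 (SE 0.17, adjusted p = 0.00321), with 3.92 to 4.31 in the amiodarone pools and 5.41 to 5.71 in the vehicle pools. The Tnni1 call was lost in 4 of 6 leave-one-out fits (adjusted p up to 0.130), and the Acta1 call in 0 of 6. Both genes, like Myh7, are known from the fetal ventricle. Lmod2, an actin filament elongation factor, rose by 0.76 (SE 0.15, adjusted p = 0.0224), and 4 such fits ended its call. Of the other striated myosin heavy chains, 2 were tested and 0 passed: Myh3 (embryonic) had 0.81 (SE 0.26, adjusted p = 0.108) and Myh7b had -0.20.

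**Figure D4:**
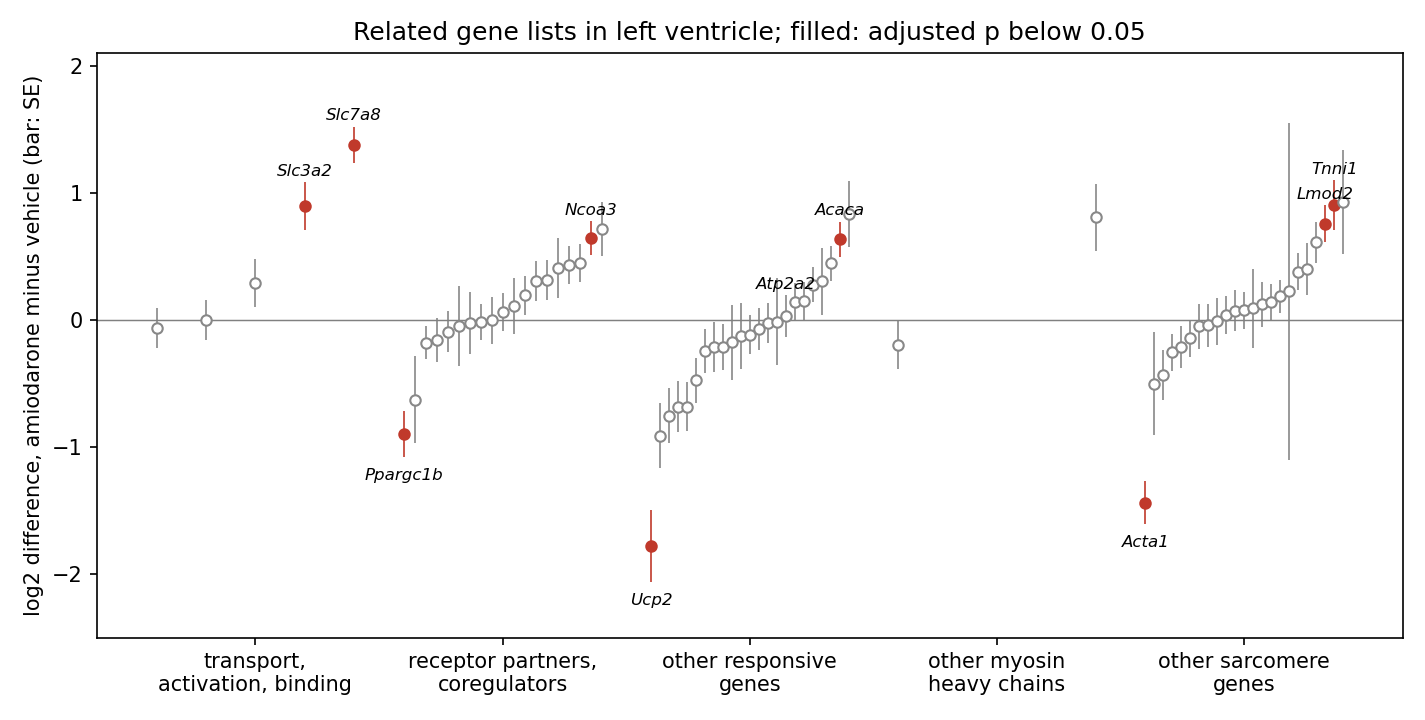
Log2 difference (amiodarone minus vehicle, bar SE) of every tested gene in 5 related lists in left ventricle, ordered by size within each list; filled points have an adjusted p below 0.05 and are named, as is Atp2a2. Slc7a8 is the highest at 1.38 and Ucp2 the lowest at -1.78, and most genes lie near 0.

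Klf9 and the lipogenic gene Acaca also belong to programmes with other regulators, and those lists were read beside them. Of 12 glucocorticoid-responsive genes, all tested in heart, 7 rose and 0 fell, with a median difference of 1.04 against 0.03 over all features. Fkbp5, a chaperone of the glucocorticoid receptor, rose by 2.44 (SE 0.18, limma adjusted p = 0.000566), with 3.96, 4.09 and 3.68 in the amiodarone pools and 1.57, 1.63 and 1.21 in the vehicle pools. Zbtb16 rose by 2.54 and Klf15, of the same family as Klf9, by 1.14; Cebpd, Errfi1 and Nfkbia rose by 1.17, 1.08 and 1.00. Of 9 tested fatty acid synthesis genes 4 rose and 0 fell: Srebf1 by 1.55, Dgat2 by 1.49, Gpam by 0.78 and Acaca by 0.63, against 4.47% of all features higher. The list had a median difference of 0.44 against 0.03 over all features, and Mlxipl, a carbohydrate-sensing activator of lipogenic genes, had -0.76 (adjusted p = 0.0929) with groups that did not overlap. Leaving out 1 pool ended the Gpam call in 4 of 6 fits. Whether any of these regulators acted on Klf9 was not tested.

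The genes whose heart profile was nearest to each called member were found by root mean square distance over the 6 heart arrays, after removal of each gene's mean. For Klf9 they were Tspo (a mitochondrial outer membrane protein) at a log2 distance of 0.03, Ncoa3 at 0.04 and Iah1 at 0.05. For Myh7 they were Adora1 (the adenosine A1 receptor) at 0.06, Tst (a mitochondrial sulfurtransferase) at 0.08 and Tnni1 at 0.09. The distance was computed from the same 6 arrays as the differences above, and Tst itself did not pass the test (adjusted p = 0.0571).

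Markers of the cells in the ventricle moved unevenly, while 8.6% of all heart features were called. Cardiomyocyte markers gave no calls: 0 of 10 passed in either direction, their median difference was 0.02, and their summed scaled level was 5949 to 6108 with amiodarone and 5209 to 6923 with vehicle. The 4 atrial markers, which bear on Myh6 because atria also make it, gave 0 calls. Myl4 was 9.46 to 9.82 over the heart arrays and the brightest of the 4 on each, so it weighs most in their summed level. Myl7 was 7.16, 7.62 and 4.82 in the vehicle pools and 6.88 and 3.93 in amiodarone pools 1 and 2. Nppa was 2.701, 4.918 and 4.118 in the vehicle pools and 5.304 and 4.924 in amiodarone pools 1 and 2. Its log2 difference was 2.21 (SE 0.88, limma adjusted p = 0.171). The summed level of the 4 markers was 888 to 1930 with amiodarone and 933 to 1034 with vehicle. The top value was amiodarone pool 3, where Nppa stood at 8.13 and Myl7 at 9.47. Without that pool Myh7 had a difference of 0.71 (adjusted p = 0.102), Klf9 0.59 (0.0714), Thra -0.88 (0.0563) and Myh6 -0.08 (0.843), and the within-array myosin difference was 0.79.

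Over all heart features, 4.47% were called higher and 4.13% lower. Of 8 red cell markers 5 fell and 0 rose in heart, including Hbb by 2.39. Their summed level was 18.8 to 22.3 with amiodarone and 72.2 to 105 with vehicle. Of 7 tested fibroblast markers the 4 that fell were matrix genes (Col1a1, Col1a2, Col3a1 and Lum) and 0 rose. Pdgfra, Dcn and Tcf21 had differences of 0.47, 0.40 and -0.07 and did not pass. The summed level of the list was 152 to 205 with amiodarone and 306 to 403 with vehicle. Of 6 tested leukocyte markers 2 rose, S100a8 and S100a9. Endothelial markers gave 1 lower call of 7, Tie1, and skeletal muscle markers gave 0 of 1. In a whole-tissue sample, fewer cells of a type and less RNA per cell cannot be told apart, and the part of these cells in the Klf9, Thra and Ucp2 values was not tested.

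In whole blood, 3 members were tested and all 3 passed on the scaled values: Thra and Klf9 were higher and Dio1 was lower after amiodarone. That count says little, since 10662 of 15652 blood features passed (68.1%; 41.2% higher and 26.9% lower), the groups did not overlap for 74.1%, and the median of all features was 0.45. The amiodarone arrays were also brighter before scaling, and the reason for that was not tested.

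Thra read 0.57, 0.56 and 0.46 in the amiodarone blood pools, against -0.08, -0.28 and -0.50 in the vehicle blood pools. The groups did not overlap, and the difference was 0.82 (SE 0.18, limma adjusted p = 0.00639). With normexp background correction it was 0.22 (adjusted p = 0.214), and without scaling 2.40.

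Klf9 read 2.18, 1.72 and 2.29 in the amiodarone blood pools, against 0.89, 1.06 and 1.29 in the vehicle blood pools, again with no overlap. It was higher by 0.99 (SE 0.22, adjusted p = 0.00665), or 1.98-fold, by 0.46 (adjusted p = 0.205) with normexp and by 2.57 without scaling. Its dimmer probe was well above background on all 3 amiodarone arrays and on no vehicle array. The scaled means of that probe were 1.42-fold apart, with the dim vehicle signal taken as measured. Its adjusted p was 0.0602 in the limma fit of single probes, 66.6% of them called. The groups overlapped on that probe with normexp and in the authors' value table, and the vehicle arrays were dimmer before scaling.

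Dio1 read 1.03, 1.33 and 1.07 in the amiodarone blood pools, against 2.78, 3.05 and 2.78 in the vehicle blood pools, a difference of -1.73 (SE 0.18, adjusted p = 0.000949). Before scaling its signals were 171, 136 and 154 with amiodarone and 174, 168 and 165 with vehicle, which overlap, and without scaling the difference was -0.14 (adjusted p = 0.712). The second Dio1 probe was not well above background on any blood array, so presence of the transcript rests on 1 of 2 probes. Both are listed to the same transcript, at chr5:128385913-128385972 (the detected probe) and chr5:128403761-128403820 of rn4, minus strand.

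**Figure D5:**
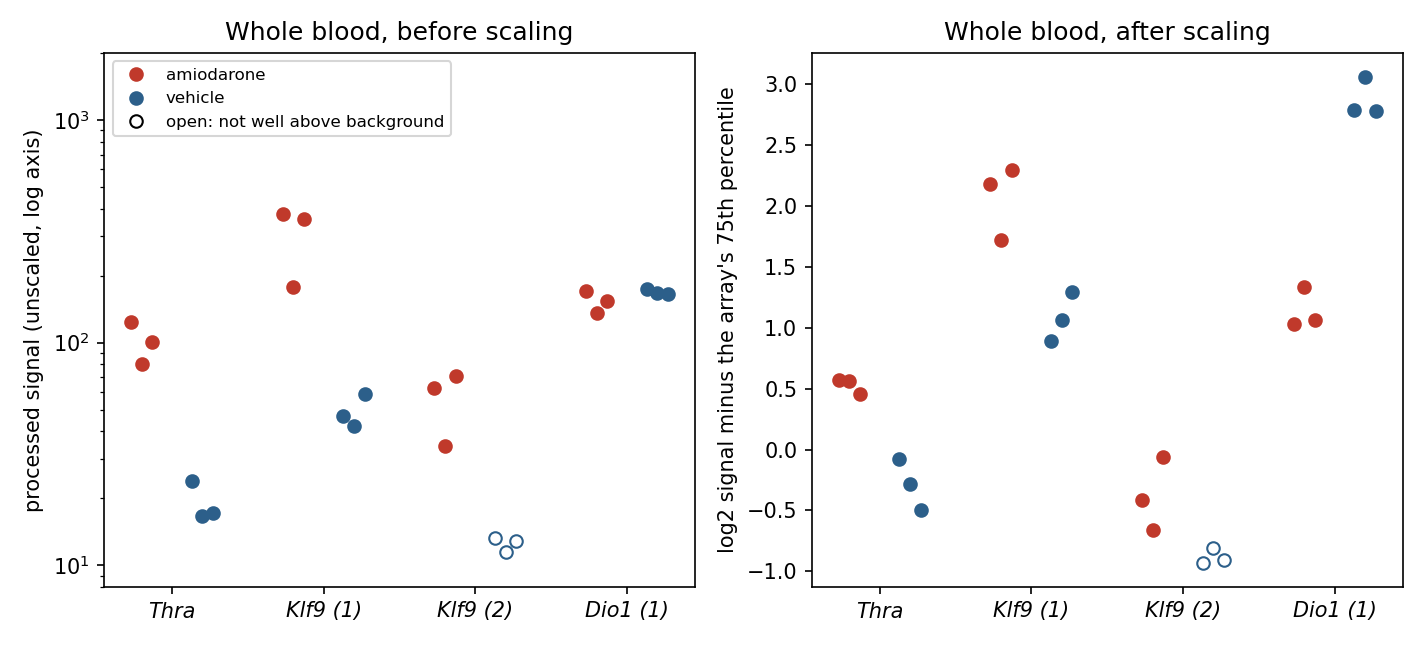
Unscaled processed signal (left, log axis) and log2 scaled signal (right) of the Thra probe, both Klf9 probes and the first Dio1 probe in whole blood, amiodarone left of vehicle, 3 pools each; open points were not well above background. Dio1 signals overlap before scaling at 136 to 171 with amiodarone and 165 to 174 with vehicle, and separate after it.

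Red cell transcripts were lower in blood after amiodarone: 8 of 8 tested red cell markers fell, with a median difference of -2.37. Their summed scaled level was 2998 to 5537 with amiodarone and 12103 to 19992 with vehicle. Of all blood features, 26.9% were called lower and 41.2% higher. Leukocyte markers had a summed level of 827 to 947 with amiodarone and 323 to 376 with vehicle, with 6 of 9 higher and 1 lower. The part of blood cell makeup in the Thra, Klf9 and Dio1 values was not tested. The remaining members were at background in blood: Myh6, Myh7, Thrb, Dio2 and Hr were well above it on 0 of 6 arrays, and Thrsp on 2 amiodarone arrays and 1 vehicle array.

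The drug effect on Thra differed between tissues. The heart effect minus the blood effect was -1.42 (SE 0.33, limma adjusted p = 0.00494, 13064 features tested, 51.4% of them called), from -0.61 in heart and 0.82 in blood. It was -0.80 (adjusted p = 0.0990) with normexp, -3.15 without scaling, and -1.70 to -1.21 without any 1 pool. For Klf9 the heart effect minus the blood effect was -0.37 (SE 0.24, adjusted p = 0.208). On its brighter probe, with the main processing, all 3 amiodarone pools lay above all 3 vehicle pools in both tissues. The groups overlapped on the dimmer probe in heart and, with normexp, on the brighter probe in blood.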

How the data were processed

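Total RNA of 12 pools was labelled with Cy3 and hybridised to single-colour arrays, per the labels' protocols. The deposited scanner files hold spot intensity from Agilent Feature Extraction 9.5.1.1, already background-subtracted, per the file headers, with rn4 coordinates. The authors' value table was deposited as linear intensity with its normalization not stated; heart and blood were normalized separately, and it served as an alternative. Spots of 1 probe were averaged over non-control spots without outlier flags, scaled to each array's 75th percentile and put on a log2 scale. The brightest passing probe stood for a gene. Names came from RefSeq by accession for 16336 probes, by symbol for 3735 and by synonym for 1099; 19842 kept the file's name. limma 3.58.1 (R 4.3.3, lmFit and eBayes) was fitted to each tissue, and to both for the tissue difference, with Benjamini-Hochberg adjustment over all features. The scripts were tested on simulated data. An exact permutation test of 3 against 3 cannot give a two-sided p under 0.1. No depth applies: the number of arrays limits the precision.

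The members and the gene lists were chosen with earlier results of these data known. Named genes were all members and, from each list, the genes past the threshold in heart (at most 6, by smallest p), otherwise the 2 brightest, with Atp2a2, Pln, Ryr2, Nr1d1 and the 3 genes nearest to each called member. Other list members, the markers and the genes used to describe pool 3 were named after their values were seen, as was the within-array myosin difference. Alternatives covered background, scaling, value source, filter, probe choice, slide, array weights, replicate block and each pool left out.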

Additional observations from a re-analysis of the deposited data

Results flagged for a closer look

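The drug effect on Thra differed between heart and blood by a test of the difference itself: the heart effect minus the blood effect was -1.42 on the log2 scale, from -0.61 in heart (higher in 0 of 3 amiodarone pools than the vehicle mean) and 0.82 in blood. Of the 13064 features in that test, 51.4% passed. With normexp background correction the Thra difference was -0.80 and did not pass (limma adjusted p = 0.0990), and the blood effect was 0.22. The heart effect alone did not pass its own test, and no explanation was tested.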

How the results depend on the processing

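Main counts were 1502 heart features, 10662 blood features and 6718 for the tissue difference. Heart counts were 734 without scaling, 285 without the filter, 286 on the first slide alone, 749 with the replicate block, 4272 with array weights and 537 to 1379 without any 1 pool; the lowest came without vehicle pool 3, and amiodarone pool 2 and vehicle pools 1 and 2 gave 664, 618 and 637. Blood gave 1281 with normexp and 24651 without the filter, and the tissue difference 1221 with normexp and 10309 without scaling. Calls in heart that were higher made up 52.0% in the main setting, 64.1% with median scaling and 30.7% without scaling; in blood they made up 18.9% with normexp, 97.5% without scaling and 47.1% in the authors' value table.

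Klf9 in heart lost its call at 0.47 without scaling, 0.61 without the filter (more features tested), 0.41 with probes averaged, 0.55 on the first slide (fewer samples) and 0.57 to 0.64 without 1 pool. Myh7 lost it at 0.66 without scaling, 0.66 in the value table, 0.80 without the filter and with slide as a block, 0.72 on the first slide and 0.64 to 0.95 without 1 pool. Myh6 turned sign at -0.055 with normexp, -0.058 with quantile scaling, -0.13 without scaling and in the value table, -0.0035 on the first slide and -0.086 with array weights, and ranged from -0.18 to 0.12 without 1 pool. Atp2a2 turned at -0.0011, -0.10, -0.11 and -0.089 with normexp, quantile scaling, no scaling and the value table, and ranged from -0.085 to 0.12 without 1 pool. Thra in heart gained a call with array weights (-0.72). In blood, normexp ended the Thra (0.22) and Klf9 (0.46) calls, and no scaling the Dio1 call (-0.14). Without scaling, blood Thra and Klf9 were 2.40 and 2.57. The tissue difference of Thra was -0.80 with normexp and -3.15 without scaling; that of Klf9 turned to 0.11 with normexp and was called at -2.10 without scaling. Other causes were not tested.

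Whether pool numbers pair the groups was not settled by these arrays. Same-numbered heart pools had deviations correlated at -0.17, -0.24 and 0.32 across genes, and blood pools at 0.09, 0.17 and 0.31. Of the heart pools, not every one correlated best with its own number. Each blood amiodarone pool did, pool 2 narrowly (0.171 against 0.168 for vehicle pool 1). With the replicate block Klf9 kept 0.61 and Myh7 0.80 with adjusted p of 0.0914 and 0.0929, neither past the threshold.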
